A study of Ananas comosus with 3 samples.

Results

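Among the 9278 cDNA elements of the pineapple (*Ananas comosus*) array, 2 contigs were annotated in the files as enzymes of myo-inositol and L-ascorbate synthesis, each carried by 1 clone. In the files, contig 3227's clone (JBW029A09) is named as a myo-inositol monophosphatase, and the study calls it L-galactose-1-phosphate phosphatase (GPP). It is called the GPP contig here. The other was contig 3067 (clone JBW102E12), described as a GDP-mannose pyrophosphorylase. Members were chosen by the number of the GPP contig and by words in the deposited gene names. The keywords for inositol oxygenase, inositol-1-phosphate synthase, L-galactose-1-phosphate phosphatase and galactonolactone enzymes each matched 0 elements, and later sequencing of clones added 0 clones to either contig. The 2 members stand among 7773 features (contigs, or clones without a contig number) that were measured on at least 2 slides.

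Flesh of field-grown Smooth Cayenne (Clone C10) fruit picked mature green or mature yellow was compared on 3 two-colour slides, each hybridized with labeled cDNA of both stages. Mature yellow cDNA carried Cy3 on replicates 1 and 3 and Cy5 on replicate 2, where the dyes were exchanged. The methods mention both biological and experimental repeats but not which slides are which or how many fruits each hybridized RNA came from, so the SDs and p-values measure the spread between slides, part of which may be technical. Each slide held 18556 element spots, every element being printed in duplicate, and 308 to 547 spots a slide were marked abnormal and left out. The median element lay only 15.8 to 116 intensity units above its local background, and the log2 ratios of 2 slides correlated across features with r between 0.37 and 0.67. Of the tissue markers looked for, fruit bromelain was present with 3 features and metallothionein with 2. The brightest of them stood above 99.2% and 99.8% of all features. The median share of features that were dimmer was only 20.6% for the fruit bromelain features, against 94.99% for the metallothionein features. Chlorophyll a/b binding proteins and bromelain inhibitor had 0 elements under those names.

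Plants make L-ascorbate (vitamin C) mainly through GDP-mannose and L-galactose. GDP-mannose pyrophosphorylase makes GDP-mannose, which is also the donor for mannose-containing glycans, and is encoded in Arabidopsis by VTC1. L-galactose-1-phosphate phosphatase, VTC4 in Arabidopsis, releases L-galactose further down the same pathway and also removes the phosphate from myo-inositol phosphates, so that the same protein serves inositol synthesis. Myo-inositol oxygenase opens the inositol ring to give D-glucuronate, a precursor of cell wall sugars, and has been proposed as another way into ascorbate. The files pair neither contig with an accession or a genome position, so none is given.

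Contig 3227's spots gave a clear signal at both stages, with more of it in mature yellow than in mature green fruit on every slide. Above local background, its 2 spots on replicate 1 read 302 and 283 intensity units for mature yellow fruit against 146 and 129 for mature green fruit. On replicate 2 its usable spot read 1022 against 588, and the other spot, marked abnormal, 873 against 587. On replicate 3 the spots read 284 and 246 against 142 and 119. At each of the 6 spots the signal exceeded nearly all of the blank spots. The lowest share exceeded was 99.6% in mature yellow fruit and 99.8% in mature green fruit. The 5 spots not marked abnormal all passed the authors' 2xSD test, a standard deviation filter on spots whose exact form is not given in the sources used here.

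The signals of the GPP contig at the 2 stages were therefore separated within each slide, but slides differed more than stages did. After background correction and loess normalization (a curve that removes the dependence of the ratio on brightness within a slide), its log2 intensity was 8.25, 10.39 and 8.23 in mature yellow fruit on replicates 1, 2 and 3. In mature green fruit it was 7.88, 9.14 and 7.95. The means were 8.96 ± 1.24 (SD, n = 3 slides) and 8.32 ± 0.71, and the ranges of the stages overlapped because replicate 2 was brighter in both channels. Comparisons between stages were therefore made within slides.

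**Figure D1:**
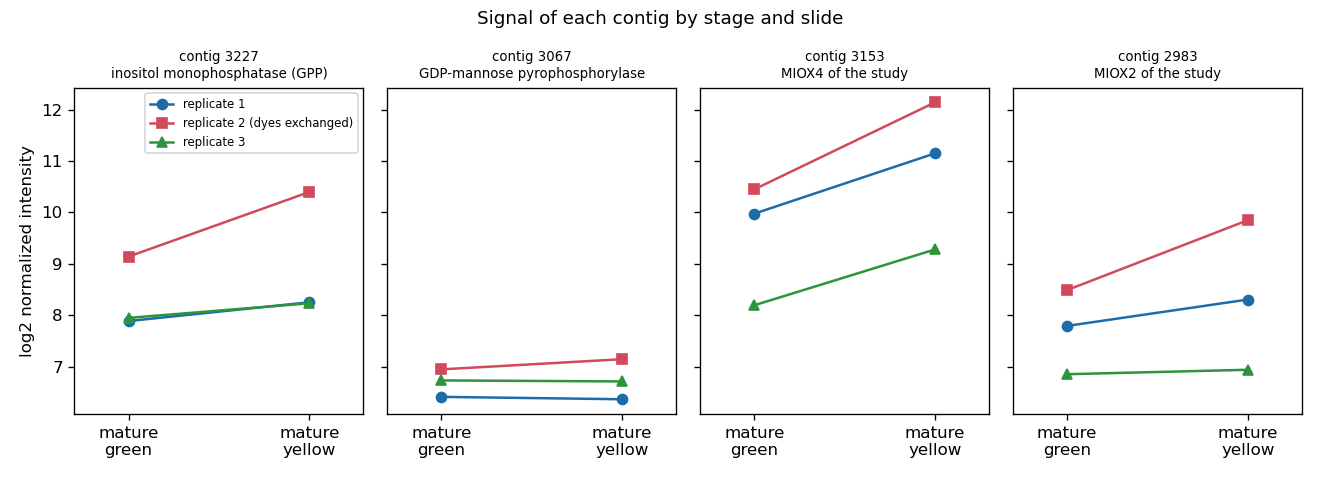
Normalized log2 intensity (y axis) of the GPP contig, the pyrophosphorylase contig 3067 and the 2 contigs that the study names as myo-inositol oxygenases (MIOX), in mature green and mature yellow fruit, with 1 line for each slide. Every line of the GPP contig goes up, from 7.88 to 8.25 on replicate 1, 9.14 to 10.39 on replicate 2 and 7.95 to 8.23 on replicate 3, while the lines of contig 3067 are nearly flat.

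The GPP contig had normalized log2 ratios of mature yellow over mature green of 0.37, 1.26 and 0.28 on replicates 1, 2 and 3. All 3 were above 0, and the slide with exchanged dyes stood well above the other two. The mean was 0.64 ± 0.54 (SD, n = 3 slides), a fold of 1.55. Its 95% confidence interval from limma ran from -0.04 to 1.31 on the log2 scale, that is from slightly lower to 2.49-fold higher in mature yellow fruit. The difference did not pass limma's test over all features (adjusted p = 0.566 after Benjamini-Hochberg, unadjusted p = 0.0599). In flesh RNA of this kind, a higher signal from more cells that express a gene and from more RNA per cell cannot be told apart.

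Duplicate spots of the GPP contig differed by 0.05 on replicate 1 and by 0.015 on replicate 3 on the log2 scale, so that nearly all of its spread lay between slides. Replicate 2 exceeded the mean of the others by 0.93. A smaller excess was found for 98.6% of the 7618 features measured on all 3 slides and for 93.8% of the 780 features at least as bright as the GPP contig. Without replicate 2 the mean was 0.32 (limma's adjusted p = 0.229), and with the 2 dye orientations weighted equally through a dye term it was 0.79. Replicate 2 is the only slide of its dye orientation, so the dye term fits it exactly. The slide error of that fit comes from replicates 1 and 3 alone, and its p-values do not measure the spread over all slides.

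**Figure D2:**
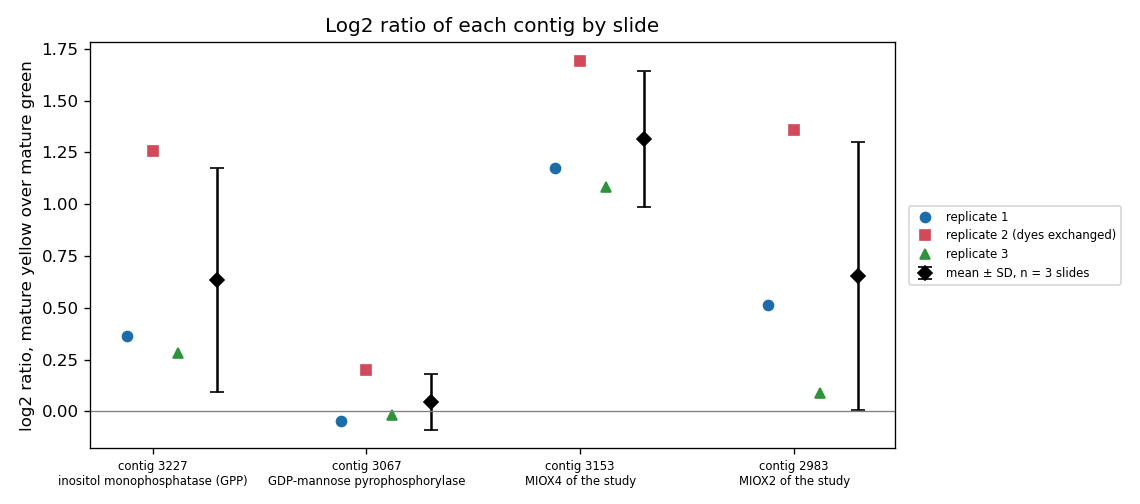
Normalized log2 ratio of mature yellow over mature green fruit (y axis) for each of the 4 contigs, with a point for each slide and the mean ± SD over 3 slides in black. The GPP contig lies at 0.37, 1.26 and 0.28, contig 3067 around 0, and contig 3153 above 1 on every slide.

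The ratio of the GPP contig before normalization varied less between slides. From intensities with the local background subtracted and nothing else done, mature yellow fruit exceeded mature green fruit 2.13-fold, 1.74-fold and 2.03-fold on replicates 1, 2 and 3, or 0.97 ± 0.15 (SD, n = 3 slides) on the log2 scale. The median element of the same slides lay at 0.21, -0.67 and 0.78 on that scale, so a like ratio stood for a different position on each slide. Background correction with an offset of 50 units first took the log2 ratios of the GPP contig to 0.86, 0.69 and 0.69. From there loess moved it by -0.50, 0.56 and -0.40, in opposite directions for the 2 dye orientations, and the SD over slides became 0.54. Without normalization within slides, but with the same background correction, the mean was 0.75 (limma's adjusted p = 0.393). Whether the dyes or the RNA set the offset of each slide was not tested.

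**Figure D3:**
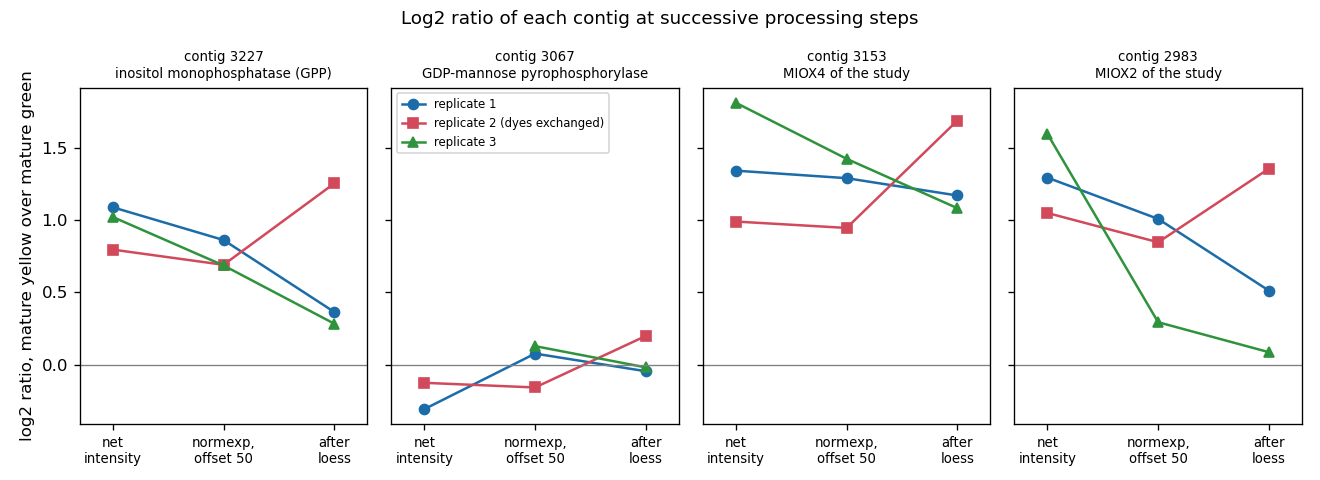
Log2 ratio of mature yellow over mature green fruit (y axis) of the 4 contigs at 3 processing steps (x axis), from intensities above local background, after normexp background correction with an offset of 50, and after loess, with 1 line for each slide. The slides of the GPP contig start at 1.09, 0.80 and 1.02 and end at 0.37, 1.26 and 0.28. Contig 3067 has no net ratio on replicate 3, where its signal did not exceed the background.

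GDP-mannose pyrophosphorylase contig 3067 was close to background on all slides. Its 2 spots read 13 and 20 units above background in mature yellow fruit and 19 and 21 in mature green fruit on replicate 1. On replicate 2 they read 40 and 37 against 42 and 42. On replicate 3 the mature yellow spots lay below their local background, at -0.99 and -3.88, and the mature green spots at 2.04 and -0.29. For comparison, 95% of the blank spots of these slides lay under 2.23 to 9 units in the mature yellow channel and under 1.91 to 12 in the mature green channel. The signal of contig 3067 was thus above that level on replicates 1 and 2 at both stages, and on replicate 3 at 1 spot in mature green fruit only. None of its 6 spots (0 of 6) passed the 2xSD test.

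The log2 ratios of contig 3067 were -0.05, 0.20 and -0.02 on replicates 1, 2 and 3, with a mean of 0.04 ± 0.13 (SD, n = 3 slides) and a fold of 1.03. The slides varied by more than this mean (adjusted p = 0.912 from limma), and the 95% interval ran from -0.17 to 0.26. Before normalization, from net intensities, they were -0.31 and -0.13 on replicates 1 and 2 and could not be formed on replicate 3. The offset of 50 units exceeds the net signal of this clone in both channels, and the sign of its ratio on replicates 1 and 2 depended on the processing step. With plain background subtraction and loess its mean was 0.24 (limma's adjusted p = 0.868), so the interval holds for one processing only. A difference between stages was not detectable at this brightness. GDP-D-mannose 4,6-dehydratase, which uses the same GDP-mannose to make GDP-fucose, was the putative name of contig 3402. It was looked up after its name was seen, lies outside the chosen words, and had a mean of 0.05 ± 0.08 (SD, n = 3 slides, limma's adjusted p = 0.888).

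Set against each other within slides, the log2 ratio of the GPP contig exceeded that of contig 3067 by 0.41 on replicate 1 and by 1.06 on replicate 2. On replicate 3 contig 3067 had no mature yellow signal above background to compare, so no test result of this pair is given. The pair still counts among the 4 pairs of contigs over which permutation p-values are adjusted below.

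None of the members was called changed. Over the whole array, 0.129% of the features were called, at an adjusted p under 0.05 and 1.5-fold or more, 4 higher and 6 lower in mature yellow fruit. Of the 2 members, 1 (the GPP contig) was higher in mature yellow fruit on all slides, as were 18.3% of the features measured on 3 slides, and the same contig reached 1.5-fold, as did 3.18% of the features. The study itself lists the GPP contig among the genes that it found from these slides at 1.5-fold or more. The direction and size of its ratio on these slides are therefore no independent evidence. Separately, the study reports an increase of GPP in mature yellow over mature green fruit by quantitative real-time PCR. Those measurements are not part of the data used here. With an unadjusted p under 0.05 there were 0 members and 8.95% of the features. Bright features as a class leaned toward mature yellow fruit. The 785 features at least as bright as the GPP contig had a median log2 ratio of 0.26 and 72.7% of them were above 0, against a median of 0.0075 and 53.2% over all features.

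**Figure D4:**
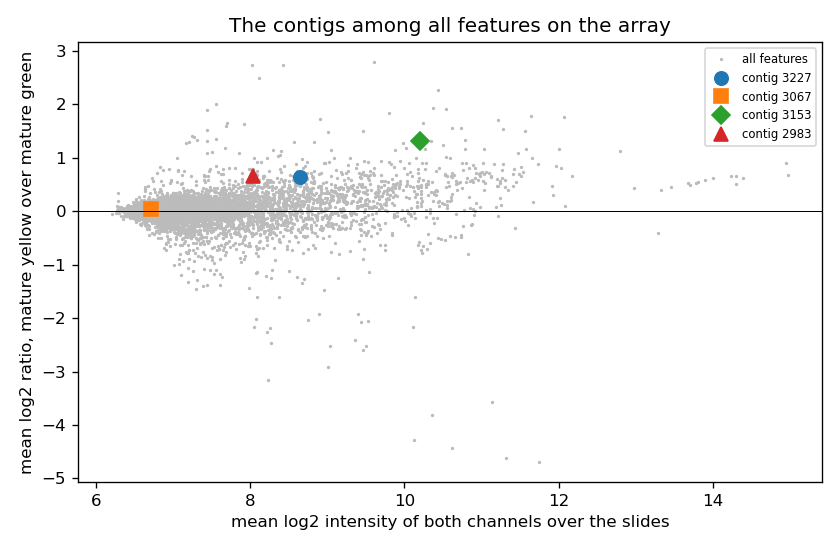
Mean log2 ratio of mature yellow over mature green fruit (y axis) against the mean log2 intensity of both channels (x axis) for all 7773 features in grey, with the 4 contigs marked. The GPP contig, at 0.64, lies within a cloud that widens with brightness, contig 3067 lies among the dimmer features near 0, and contig 3153, at 1.32, lies near the upper edge. Brightness depends on the clone and is not a transcript level.

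Myo-inositol oxygenase was represented only by clones that the files call unknown proteins. The supplementary list of the study names contig 3153 (clone JBW029E08) as MIOX4 and contig 2983 (clone JBW100C02) as MIOX2, and both are given here for comparison although they are outside the chosen words and were picked because that list holds them. That list was drawn from these slides for changes of a set size, so the direction of either contig is no independent evidence.

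Contig 3153 was the brightest of the 4 contigs, and its signal was higher in mature yellow fruit on every slide. Above background it averaged 2295, 3402 and 619 units in mature yellow fruit and 904, 1713 and 176 in mature green fruit on replicates 1, 2 and 3, and all 6 spots passed the 2xSD test. The normalized log2 ratios were 1.17, 1.69 and 1.09, a mean of 1.32 ± 0.33 (SD, n = 3 slides). Limma's 95% interval for the fold ran from 1.85 to 3.35, and the contig ranked 31 of 7773 features by its ratio, with limma's unadjusted p at 0.00134 and its adjusted p at 0.147. It passed the adjusted test in 4 of its 21 alternatives. These were the spots past the 2xSD test (1.32, limma's adjusted p = 0.0185) and spots above the blanks by 2 SD (1.32, adjusted p = 0.0177). The others were the dye term (1.41), whose slide error comes from replicates 1 and 3 alone, and the deposited table of processed values (2.16, adjusted p = 6.37e-06). In that table the median log2 ratio of replicate 3 was 1.03, so a test against 0 may lean toward mature yellow fruit. Over all its alternatives limma's adjusted p ran from 6.37e-06 to 0.799.

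Contig 2983 had normalized ratios close to those of the GPP contig, although its net ratios were larger. It read 307, 686 and 35.5 units in mature yellow fruit and 126, 331 and 11.6 in mature green fruit on replicates 1, 2 and 3, and 3 of its spots passed the 2xSD test, 0 of them on replicate 3. Its log2 ratios of 0.51, 1.36 and 0.09 gave a mean of 0.65 ± 0.65 (SD, n = 3 slides, limma's adjusted p = 0.586). Without replicate 2 the mean was 0.30, and over all its alternatives it ran from 0.30 to 1.14. Its signal on replicate 3 lay under the offset of 50 units, and there the net log2 ratio of 1.60 became 0.29 with the offset and 0.09 after loess. The difference between the GPP contig and contig 2983 was -0.15, -0.10 and 0.20, a mean of -0.02 ± 0.19 (SD, n = 3 slides), and its direction was not the same on all slides. From net intensities contig 2983 was 2.46-fold, 2.07-fold and 3.03-fold higher in mature yellow fruit, more than the GPP contig on each slide, and with plain background subtraction and loess the means were 1.02 and 0.65. Contig 3153 exceeded the GPP contig on every slide, by 0.81, 0.44 and 0.80, a mean of 0.68 ± 0.21 (SD, n = 3 slides, exact two-sided permutation of signs p = 0.25, the smallest that 3 slides allow, and 0.333 after Benjamini-Hochberg over the 4 pairs of contigs computed), and also from net intensities, at 2.54-fold, 1.99-fold and 3.52-fold. After normalization it exceeded contig 2983 by 0.33 to 0.999 (exact two-sided permutation of signs p = 0.25, adjusted 0.333), but from net intensities contig 2983 was higher on replicate 2, and with plain subtraction the means were 1.05 and 1.02. The difference between the GPP contig and contig 2983 gave an exact permutation p of 1.

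Among the contigs measured on all slides, those whose 3 log2 ratios lay nearest to the GPP contig (Euclidean distance) were described by their distance alone. Contig 1049, a 40S ribosomal protein S19 of the small ribosomal subunit, was at 0.10 with ratios of 0.39, 1.23 and 0.38. Contig 129, a cyclophilin (a peptidyl-prolyl isomerase), was also at 0.10 with 0.34, 1.27 and 0.18. The next were contigs 616 and 3414, both labelled only as undiscovered sequence, at 0.25 each, and contig 694, like a pollen-specific protein precursor, at 0.26. In all of them replicate 2 was the highest slide, which follows from choosing them by closeness to the GPP contig. Contig 2983 was at 0.27, with 6 contigs nearer than it, and contig 3067 was at 1.18.

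A further list of gene names around ascorbate and inositol found 11 features, 4 for ascorbate recycling and use and 7 for phosphoinositides and inositol phosphates. The 7 were found by name and include a protein kinase, a lipid binding protein and a phosphatidylinositolglycan synthase family member. They do not make up 1 metabolic pathway. The words for mannose and galactose steps, UDP-sugar steps, and galactinol and raffinose synthesis found 0 features in each group. Of the 11, 8 had a mean above 0 and 3 below 0, against 53.2% above 0 over all features. On all 3 slides 0 were above 0 (18.3% of all features). With limma 0 were called changed (0.129%), and 0 had a p under 0.05 before adjustment (8.95%). So few features cannot set the list apart from the array. Their median log2 ratio was 0.02, against 0.0075 over all features.

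For the ascorbate peroxidases, which use ascorbate to reduce hydrogen peroxide, the slide ratios computed here established no direction. Each contig had slides on both sides of 0. The peroxisomal contig 3096 had ratios of 0.81, -0.03 and 0.69, a mean of 0.49 ± 0.46 (SD, n = 3 slides, limma's adjusted p = 0.583). Contig 50, with 7 clones, was at -0.20, 0.28 and -0.01, and contig 870, with 4 clones, at -0.56, 0.45 and -0.25. For contig 3096 replicate 2 was the lowest slide, whereas for contigs 50 and 870 it was the highest. Monodehydroascorbate reductase contig 3333, which returns oxidized ascorbate to its reduced form, was at 0.58, -0.55 and 0.11 (mean 0.05 ± 0.57, SD, n = 3 slides, limma's adjusted p = 0.977).

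The 7 contigs of the inositol phosphate group had means from -0.22 to 0.18. The highest was the polyphosphoinositide binding protein contig 2066 at 0.56, -0.36 and 0.35. The lowest was contig 450, named as a phosphatidylinositol 3-kinase and marked in the files as possibly of nematode origin, at -0.45, -0.55 and 0.35. Inositol 1,3,4-trisphosphate 5/6-kinase contig 3187, which phosphorylates inositol phosphates, was at -0.0018, 0.37 and 0.02. Phospholipase C contig 2751, which releases inositol trisphosphate from membrane lipid, was at -0.06, -0.17 and 0.26. The 95% interval from limma spanned 0 for each of the 11. Clones of similar sequence can bind each other's cDNA on such an array.

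**Figure D5:**
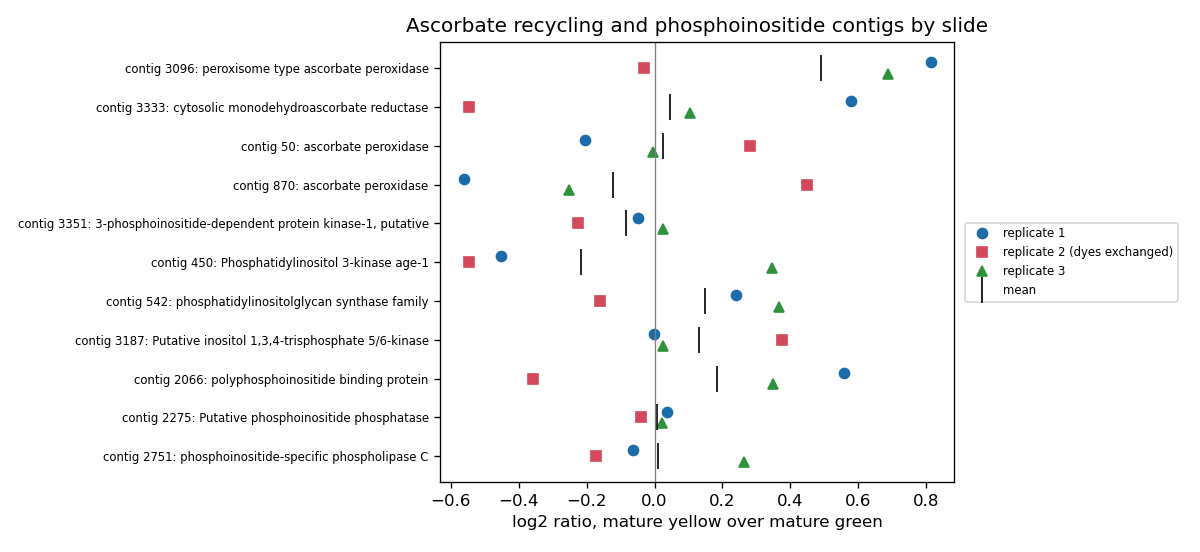
Normalized log2 ratio of mature yellow over mature green fruit (x axis) for the 11 features with ascorbate recycling, phosphoinositide or inositol phosphate names (y axis), with a point for each slide and a bar at the mean. In each feature the slides fall on both sides of 0.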

How the data were processed

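Per spot, the authors deposited the scanner's linear intensity in each dye and its local background, without correction or normalization (medians for replicates 1 and 2, means for replicate 3). They also deposited mean intensities of the spots that passed their 2xSD test, and processed contig values, a deposited score read here as the dye ratio or, below 1, minus its reciprocal. Values between -1 and 1, which that reading does not allow, numbered 6 on replicate 1 and 1 on replicate 2 and were left out. Its direction was read from the dyes and the scanner values, and the medians of its columns were 1.10, -1.04 and 2.04. The methods name LOWESS, and how the third column was centred stays unknown.

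In R 4.3.3 with limma 3.58.1, background correction was by normexp (offset 50) and normalization by loess in each slide (blanks and controls without weight). Log2 ratios were turned to mature yellow over mature green, and averaged over duplicate spots and then over the elements of a contig. All features with values on at least 2 slides were fitted together by limma, with Benjamini-Hochberg adjustment over all 7773. A call needed 1.5-fold and an adjusted p under 0.05. Every sample column was used. Figures were drawn with matplotlib 3.10.9. The fit was tested on simulated data.

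The members, the gene lists and the alternatives were chosen with earlier results of these data known. The text names every member, the MIOX contigs of the study, the 5 contigs nearest to contig 3227 and features of the fixed list of gene names, and contig 3402 was added after its name was seen.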

Additional observations from a re-analysis of the deposited data

How the results depend on the processing

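No alternative called the GPP contig or contig 3067. The GPP contig stayed above 0 in all 21 of its alternatives, from 0.32 without replicate 2 to 0.95 in the deposited table, with adjusted p from 0.0523 to 0.901. Leaving out a replicate gave 0.32 to 0.81 for the GPP contig and -0.033 to 0.089 for contig 3067, which turned below 0 without replicate 2 (-0.033). Contig 3067 also turned to -0.0053 without background correction, the cause was not tested, and it had too few spots for a value over the 2xSD spots or the spots above the blanks. The count of 10 calls over all features was 18 without background correction, 34 with an offset of 0, 59 with plain subtraction, 6 with median centring, 0 after scale normalization between slides (735 at an unadjusted limma p under 0.05, against 696), 110 over the 2xSD spots, 92 over spots above the blanks by 2 SD, 222 with each element a feature, 227 with contig numbers taken from the full files alone, 68 with a dye term, 28 with trend and robust variances, 0 with the median over elements (668), and 138 in the deposited table. An ordinary test of the slide ratios at the methods' limit of 0.1 passed 212 features unadjusted and 0 after adjustment (338 at an unadjusted p under 0.05). Leaving out a replicate gave 0 to 5 calls (362 to 917 at an unadjusted limma p under 0.05). Of the 10 calls 4 were higher in mature yellow fruit, against 1 of 6 with median centring, 9 of 26 with no normalization within slides, 4 of 18 without background correction, 47 of 222 with each element a feature, 47 of 227 with contig numbers from the full files, 0 of 5 without replicate 3, 7 of 28 with trend and robust variances, 56 of 110 over the 2xSD spots, 35 of 68 with a dye term, 130 of 212 in the unadjusted ordinary test and 106 of 138 in the deposited table. Of the alternatives chosen after seeing the data, mean intensities of the 2xSD spots gave 115 calls, no normalization within slides 26, and keeping abnormal spots 8. Each ratio pairs the stages within a slide, so no further block was fitted. Low signal limits contig 3067, and 3 slides limit all tests.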
